A study of Homo sapiens with 6 samples.

Results

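The interferon-stimulated genes and sensors described here are 45 genes, chosen by a list of symbols that covers antiviral effectors, RNA and DNA sensors, and the STAT and IRF transcription factors. All 45 had a row among the 17081 genes of the count table, and 38 passed the filter on low counts among 13382 genes tested. The study compared tumour tissue from the distal and the proximal invaded region of a sciatic nerve invasion model, with 3 libraries of each. All 6 samples are tumour tissue grown from DMS114, a long-established human cell line of small cell lung cancer. The labels give the distal and the proximal group by tumour region alone, and the sources used here do not give the host, its age, the time of growth or any drug. Nothing in the labels ties the samples to different tumours or animals, and a p-value here therefore reflects only how far these samples differ, which could be technical.

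Cells detect viral or displaced nucleic acids with cytosolic sensors, which act through IRF3 to switch on interferon genes. Secreted type I interferon binds its receptor and activates a complex that includes STAT2 and IRF9, which binds interferon-stimulated response elements (a pair of GAAA blocks set a short distance apart) and switches on the effector genes. Most of these effectors are known to be read at a low basal level in unstimulated cells, and tumour lines often carry a partly active or partly silenced set.

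The libraries held 16171106 to 26116191 counts. Distal 3 had the fewest counts and stood apart: the chi-square per gene between its counts and those of another library was 42.4 to 49.4, against 5.8 to 26.7 for the pairs without it. Synaptophysin (SYP), a neuroendocrine marker, had 59.5 to 63.9 CPM (counts scaled to library size, with the TMM factors of edgeR) in distal and 56.9 to 60.8 CPM in proximal libraries, and YAP1, known to be high in some small cell lines, had 167 to 184 CPM in distal and 168 to 187 CPM in proximal libraries. All 18 skeletal muscle markers were in the table, and their summed level was 23.9, 47.2 and 2730 CPM in distal and 27.4, 58.4 and 404 CPM in proximal libraries. NEUROD1, a neuroendocrine factor, had 6.47 CPM in distal 3 and at most 0.618 CPM elsewhere. Of 13 small cell lung cancer markers listed, 10 passed the filter. Distal 3 was the highest library for 5 of the 10, against 26.9% of all genes tested. Because these are bulk samples, fewer cells of a type and less RNA per cell cannot be told apart.

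The promoters were searched for the sequences that interferon-activated factors are known to bind. In the RefSeq table for GRCh38.p14, 35 of the 45 genes had a window of 250 bases before to 50 bases after a transcription start. An interferon-stimulated response element core (GAAA, any 2 bases, GAAA, on either strand, overlapping matches counted) was found in 22 of the 35 windows (62.9%), against 996 of 27305 windows in the whole table (3.65%). There were 41 matches in the 22 windows, of which 38 began within 200 bases before the start, and 15 windows held more than 1. The core of a gamma-activated site (TTCNNNGAA, both strands), which binds STAT dimers, was in 9 of the 35 windows (25.7%), against 7.88% of all windows. GAAA blocks with any other spacing were not counted. A match describes these letters only and does not show that a factor was bound.

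The windows of IFIT1, ISG15, DDX60, IFI44L and XAF1 are printed 5′ to 3′ in the direction of the gene, with the response element core in capitals (in IFIT1 it lies on the opposite strand and reads TTTC). IFIT1 (chr10:89392373-89392672, plus strand) is shown because its distal and proximal levels did not overlap. The windows of RSAD2 and HERC6, whose levels did not overlap either, held no match to the core as searched. ISG15 (chr1:1013247-1013546, plus strand) has overlapping cores, and DDX60 (chr4:168318703-168319002, minus strand) is the sensor with the most counts. IFI44L (chr1:78620198-78620497, plus strand) holds 2 cores although the gene was below the expression filter. XAF1 (chr17:6755796-6756095, plus strand) holds no match to the core as searched, but does hold a GAAA pair with a shorter spacing (gaaacgaaa). Its level in distal 3 was among the lowest relative to the other libraries.
IFIT1: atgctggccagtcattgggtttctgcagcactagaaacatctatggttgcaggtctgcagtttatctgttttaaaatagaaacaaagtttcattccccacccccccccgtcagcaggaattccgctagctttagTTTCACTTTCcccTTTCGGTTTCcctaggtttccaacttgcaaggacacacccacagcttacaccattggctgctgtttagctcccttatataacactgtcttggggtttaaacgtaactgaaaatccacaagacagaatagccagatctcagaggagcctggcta
ISG15: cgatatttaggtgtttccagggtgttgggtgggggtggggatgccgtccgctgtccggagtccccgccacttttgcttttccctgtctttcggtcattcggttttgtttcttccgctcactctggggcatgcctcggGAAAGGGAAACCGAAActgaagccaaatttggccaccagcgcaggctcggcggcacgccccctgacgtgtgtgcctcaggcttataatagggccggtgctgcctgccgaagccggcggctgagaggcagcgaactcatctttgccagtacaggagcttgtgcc
DDX60: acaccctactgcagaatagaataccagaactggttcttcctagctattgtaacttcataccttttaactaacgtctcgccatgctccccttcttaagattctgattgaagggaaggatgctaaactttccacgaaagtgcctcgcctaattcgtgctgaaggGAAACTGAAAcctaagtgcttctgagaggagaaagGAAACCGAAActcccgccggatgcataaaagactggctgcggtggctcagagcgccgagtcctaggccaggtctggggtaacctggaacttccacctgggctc
IFI44L: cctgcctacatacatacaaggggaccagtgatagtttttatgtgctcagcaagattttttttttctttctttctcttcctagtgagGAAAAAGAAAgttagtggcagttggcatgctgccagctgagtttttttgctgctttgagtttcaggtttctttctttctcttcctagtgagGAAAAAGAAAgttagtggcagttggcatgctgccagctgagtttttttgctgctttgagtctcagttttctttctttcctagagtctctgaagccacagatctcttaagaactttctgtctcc
XAF1: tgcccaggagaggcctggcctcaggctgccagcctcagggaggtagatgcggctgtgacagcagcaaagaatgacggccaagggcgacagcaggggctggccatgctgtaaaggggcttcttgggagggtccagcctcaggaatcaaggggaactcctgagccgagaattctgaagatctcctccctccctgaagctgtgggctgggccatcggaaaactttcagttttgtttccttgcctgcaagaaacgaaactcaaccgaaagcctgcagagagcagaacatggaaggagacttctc

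**Figure D1:**
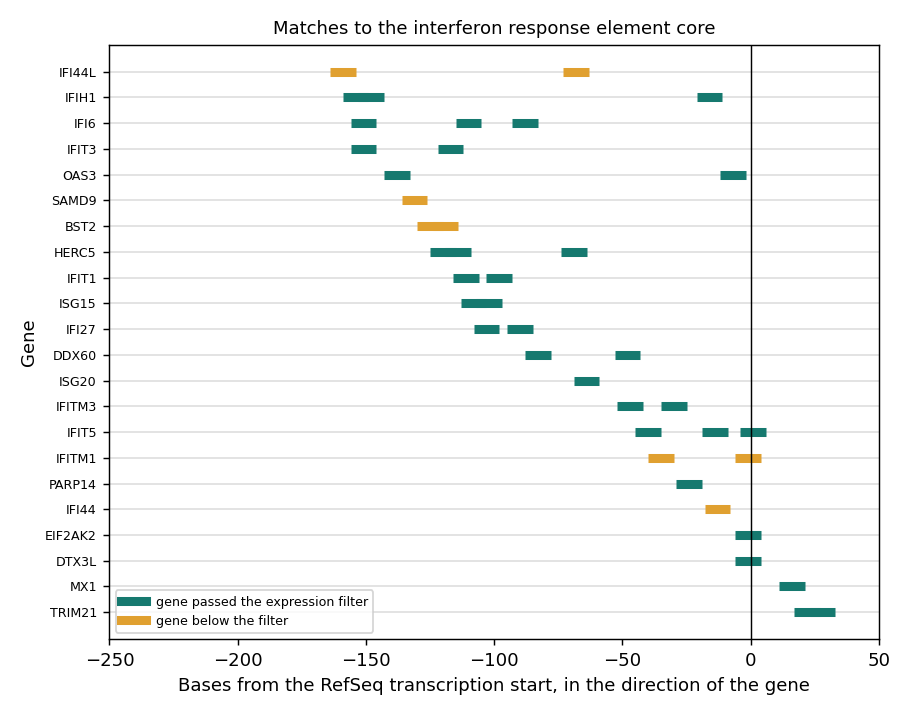
Positions of the response element core in the 22 promoter windows that hold it. The horizontal axis is the distance in bases from the RefSeq transcription start, each bar is 1 match, green bars are genes that passed the expression filter and orange bars genes below it. Of the 41 matches, 38 begin within 200 bases before the start.

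Members below the expression filter also carried the core. Of the 7 members below the expression filter, 6 had a window in the table, and 5 of these held the core: IFITM1, BST2, SAMD9, IFI44 and IFI44L. Among tested members, the 17 with a core had a median log2 fold change, distal minus proximal, of -0.16, and the 12 without one had -0.21. The median difference between distal 3 and the mean of the other 5 libraries was -0.65 with a core and -0.64 without, on the log2 CPM scale. Windows counted as without a core can hold GAAA pairs with a shorter spacing, as those of DDX58, TRIM25, OAS1, RSAD2, XAF1 and IFI35 do. The split therefore does not separate genes with and without a response element, and no conclusion is drawn from these medians.

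No member was called between distal and proximal tumour. By the quasi-likelihood test of edgeR, adjusted by Benjamini-Hochberg over all genes, 0 of 38 tested members and 0% of the 13382 genes passed at 0.05, and the adjusted p of each member was 0.9997. DESeq2 and limma-voom also called 0 members, with 0 and 1 at an unadjusted p under 0.05. By edgeR at that level, 1 member was lower in distal (RSAD2) and 0 were higher, where the background was 0.665% of genes in each direction. The groups did not overlap for 3 members, RSAD2, IFIT1 and HERC6, which were lower in every distal than in every proximal library. Among all genes, 3.09% were lower and 3.2% higher in distal without overlap. The 95% interval of the fold change stayed inside 2-fold up and down for 26 of the 38 members, a share of 68.4%, against 84.0% of all genes tested.

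Among the distal libraries, distal 3 was the one that most often lay below the proximal ones. In the same fit 33 of 38 members had lower distal values and the median log2 fold change was -0.15, while 48.4% of all genes had lower values and their median was 0.00. Distal 3 was the lowest of the 6 libraries for 27 of 38 members (71.1%), against 25.4% of all genes tested. Distal 3 was below every proximal library for 28 members (73.7%, all genes 29.2%), distal 2 for 9 (23.7%, all genes 19.2%) and distal 1 for 7 (18.4%, all genes 21.8%). The median distance from the proximal mean was 0.00 in distal 1, -0.06 in distal 2 and -0.61 in distal 3 on the log2 CPM scale. Proximal 3 was the highest library for 22 of 38 members (57.9%), against 18.4% of all genes. These counts were chosen after the values were seen and have no test.

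Without distal 3, 22 of the 38 members had lower values in distal and the median log2 fold change was -0.05. Other libraries moved the median too: it was -0.10 without proximal 3, with 28 of 40 tested members lower, -0.34 without distal 1, with 32 of 38 lower, and -0.24 without proximal 2, with 36 of 40 lower. Without distal 3 and proximal 3, the library of each group with the highest muscle sum, 18 of 40 tested members had lower values and the median was 0.03. With the mean log2 CPM of the 14 tested muscle markers as a covariate the median was -0.16, and 32 of 38 had lower values. The part that the lower depth of distal 3 has in these values was not tested.

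**Figure D2:**
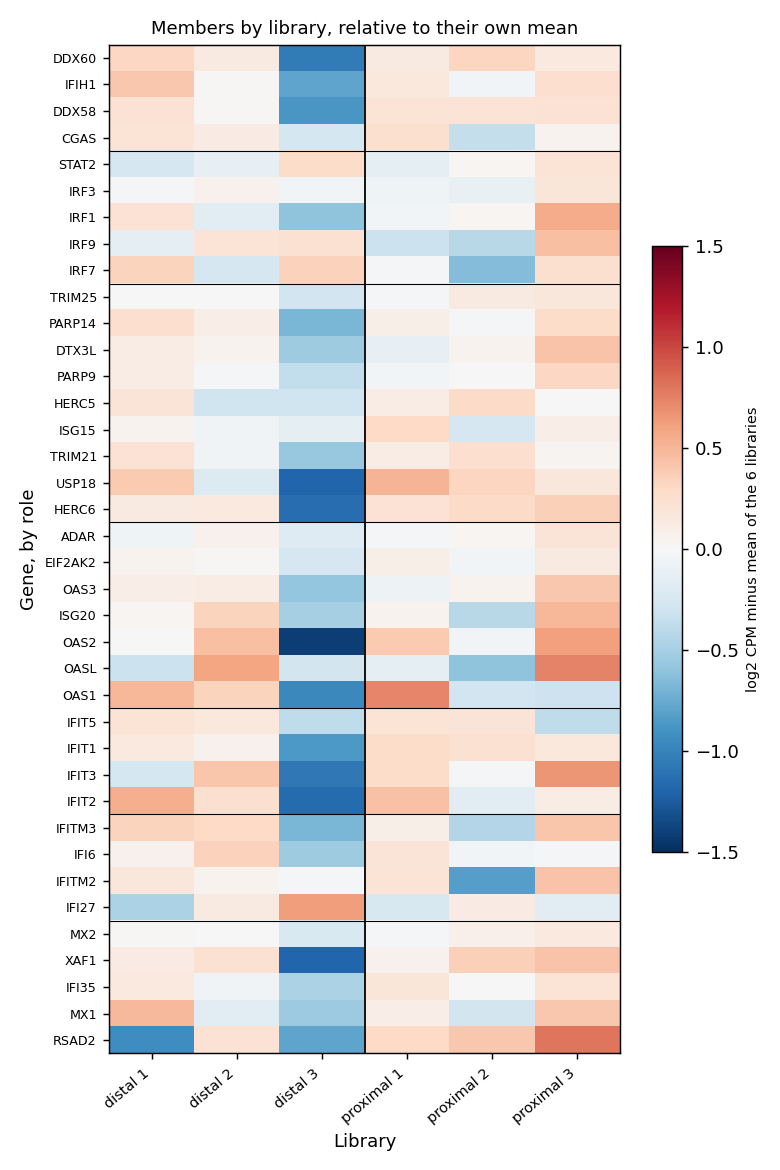
Heat map of the 38 tested members (rows, by role) in the distal (left) and proximal (right) libraries. Colour is log2 CPM minus the gene's mean over the 6 libraries, and the column of distal 3 is the lowest for 27 members while proximal 3 is the highest for 22.

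Of the sensors, 4 had 4.66 to 5.30 CPM per kilobase of exon on average, and the adaptor STING1 was almost absent. DDX60, an RNA helicase that assists RNA sensing, had 37.3, 33.0 and 14.5 CPM in distal and 33.0, 37.7 and 33.3 CPM in proximal libraries. Distal 3 was low and distal 1 and 2 lay among the proximal values. The log2 fold change of DDX60 was -0.29 (SE 0.35), with a range of -0.54 without distal 1 to 0.02 without distal 3 when each library was left out. DDX58 (RIG-I, a sensor of RNA ends) had 25.9, 22.7 and 12.2 CPM in distal and 25.8, 25.8 and 26 CPM in proximal libraries. For DDX58 the log2 fold change was -0.35 (SE 0.25, 95% interval -0.92 to 0.23), -0.57 without distal 1 and -0.09 without distal 3. The proximal values were almost equal, while distal 3 was less than 50% of the median of the others.

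IFIH1 (MDA5, a sensor of long RNA duplexes) averaged 25.5 ± 9.91 CPM in distal and 28.6 ± 2.88 CPM in proximal tumour (SD, n = 3 each), and it too was lowest in distal 3, at 15.1 CPM. CGAS, which senses cytosolic DNA and makes the messenger that activates STING1, averaged 20.3 ± 3.45 CPM in distal and 19.7 ± 4.03 CPM in proximal tumour, and was lowest in proximal 2. STING1 had 3, 3 and 1 reads in distal and 1, 1 and 1 in proximal libraries. These are at or under 3 reads, so no fold is given. Per kilobase of exon, the mean level was 4.81 CPM for CGAS and 0.0193 CPM for STING1, and the lowest library of CGAS (3.70) was above the highest of STING1 (0.0343).

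Of the 5 transcription factors, 3 had lower and 2 higher values in distal, and IRF1 was the one lowest in distal 3. STAT2, the partner of IRF9 in the interferon-activated complex, had 47.6, 52.0 and 68.6 CPM in distal and 50.9, 57.7 and 65.3 CPM in proximal libraries. Distal 3 and proximal 3 were the highest of their groups, and the groups overlapped. The log2 fold change of STAT2 was -0.05 (SE 0.15), -0.22 without distal 3 and 0.05 without distal 1. IRF1, an early target of interferon signalling, had 28.2, 21.6 and 15.9 CPM in distal and 23.6, 24.7 and 35.6 CPM in proximal libraries. Here distal 3 was the lowest and proximal 3 the highest of all, and the log2 fold change was -0.35 (SE 0.24). For IRF1 it was -0.17 without distal 3, -0.14 without proximal 3, -0.57 without distal 1 and 0.04 without distal 3 and proximal 3 together.

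IRF3, the factor that sensors activate, was the steadiest of the 5, and averaged 26.5 ± 1.01 CPM in distal and 26.7 ± 2.94 CPM in proximal tumour. IRF7, which amplifies the response, had 1.57 to 2.44 CPM in distal and 1.15 to 2.25 CPM in proximal libraries. IRF9 had 2.03 to 2.69 CPM in distal and 1.66 to 3.14 CPM in proximal libraries. Per kilobase the mean levels ran in the order STAT2 (9.33 CPM), IRF3 (7.01), IRF1 (3.20), IRF7 (0.741) and IRF9 (0.612). The libraries of IRF7 and IRF9 overlapped in that order, as did those of STAT2 and IRF3, while the lowest library of IRF1 (2.04) was above the highest of IRF7 (0.929). In GENCODE 29, 48.4% of the exon bases of IRF9 and 22.0% of those of IRF1 overlap another gene, so some of their reads could have been counted differently.

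**Figure D3:**
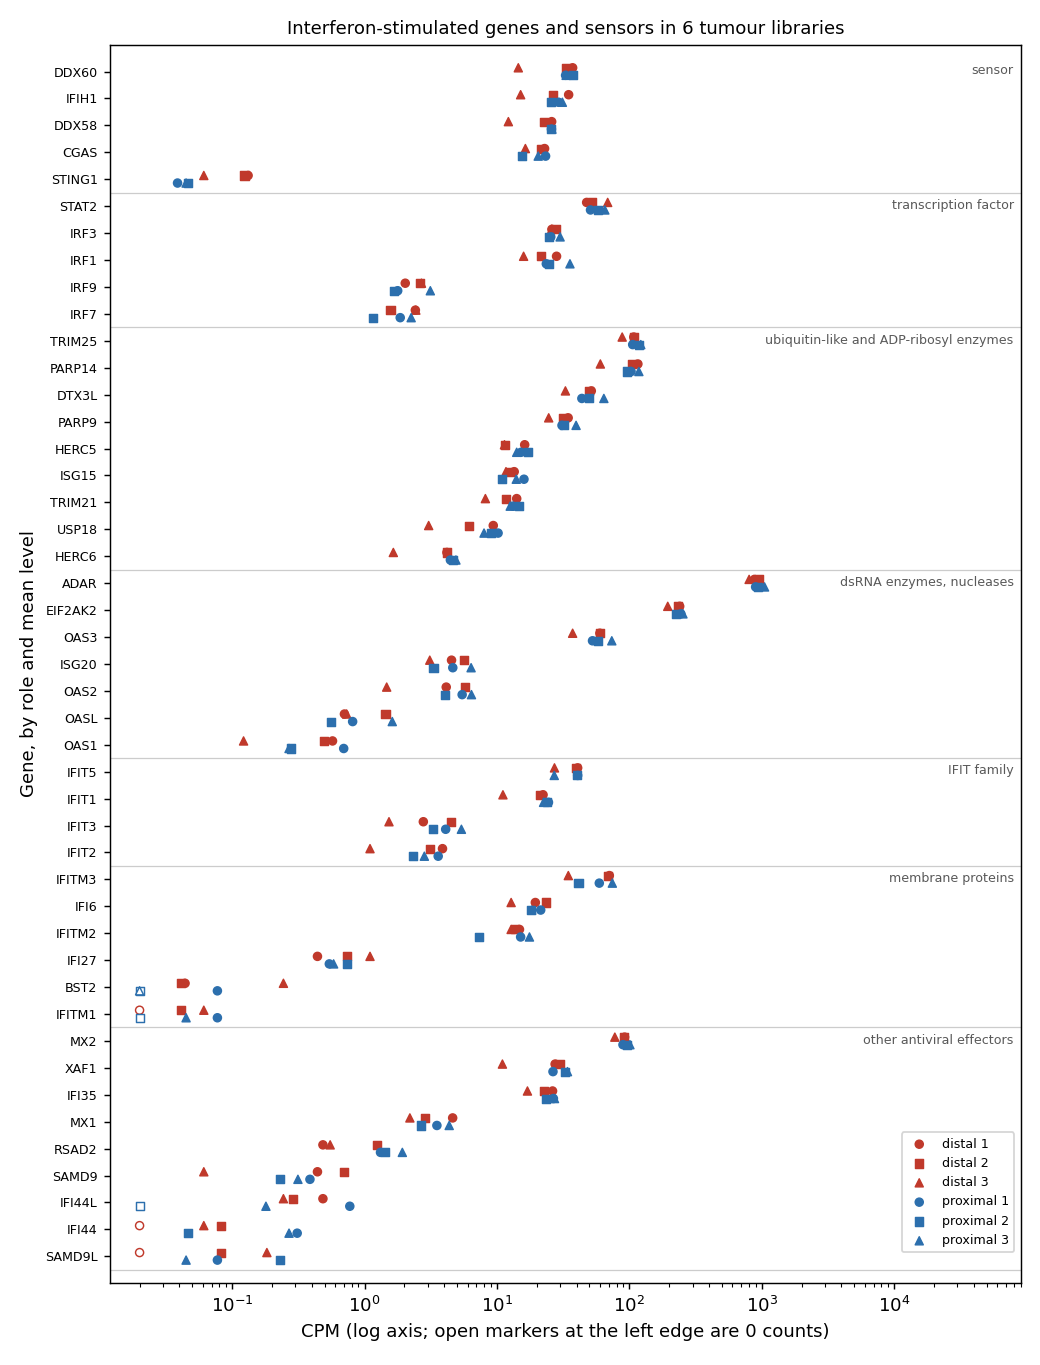
CPM of the 45 members in each library, on a log axis, ordered by role and mean level. Red markers are distal and blue markers proximal libraries, the marker shape is the replicate number, and open markers at the left edge are 0 counts. Of the 45 members, 10 averaged under 1 CPM and 3 at least 100 CPM.

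Of the 9 ubiquitin-like and ADP-ribosyl enzymes, all had lower values in distal, and distal 3 was the lowest library for 8, ISG15 being the exception. With distal 3 left out, 8 of the 9 had lower values in distal. TRIM25, a ubiquitin ligase that acts on DDX58, had 108, 108 and 88.3 CPM in distal and 106, 118 and 122 CPM in proximal libraries. Distal 1 and 2 lay above proximal 1. For TRIM25 the log2 fold change was -0.18 (SE 0.10, 95% interval -0.41 to 0.04), or -0.09 without distal 3. HERC6, a HECT-type ligase, had 4.19, 4.20 and 1.65 CPM in distal and 4.45, 4.66 and 4.90 CPM in proximal libraries. Every distal library was below every proximal one, by a small margin except in distal 3. The log2 fold change of HERC6 was -0.47 (SE 0.33), and -0.15 without distal 3.

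ISG15, the ubiquitin-like protein that is attached to other proteins, had 13.5, 12.6 and 11.7 CPM in distal and 16, 10.9 and 14.0 CPM in proximal libraries. The distal values lay within the proximal range. USP18, which removes ISG15 and restrains the interferon receptor, had 9.38, 6.14 and 3.05 CPM in distal and 10.2, 8.96 and 7.99 CPM in proximal libraries. Distal 1 was above 2 of the proximal libraries, and distal 3 was the lowest. HERC5, the ligase that attaches ISG15, averaged 13.0 ± 2.73 CPM in distal and 15.5 ± 1.60 CPM in proximal tumour, and TRIM21, a cytosolic antibody receptor, averaged 11.3 ± 3.00 CPM in distal and 13.5 ± 1.03 CPM in proximal tumour.

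PARP9 and DTX3L form a complex, and their genes lie head to head on chromosome 3 (122527924 to 122564784 and 122564338 to 122575203, GRCh38.p14). DTX3L had 51.6, 49.3 and 32.9 CPM in distal and 43.8, 49.2 and 64.2 CPM in proximal libraries. PARP9 had 34.5, 31.6 and 24.6 CPM in distal and 31.0, 32.1 and 39.6 CPM in proximal libraries. Both were lowest in distal 3 and highest in proximal 3. Their exons overlap by 217 bases on opposite strands, so a small part of their reads could be shared. PARP14, an ADP-ribosyl transferase encoded nearby, averaged 93.6 ± 29.4 CPM in distal and 105.9 ± 10.8 CPM in proximal tumour, with 60.4 CPM in distal 3.

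The group of ADAR, EIF2AK2, ISG20 and the oligoadenylate synthetase family held the most abundant member, ADAR. All 7 had lower values in distal, and 6 were lowest in distal 3. With distal 3 left out, 4 of the 7 had lower values in distal. ADAR, which edits adenosine to inosine and so keeps self RNA from the sensors, had 880, 961 and 803 CPM in distal and 899, 938 and 1050 CPM in proximal libraries. Distal 2 exceeded proximal 1 and 2, so the groups overlapped. For ADAR the log2 fold change was -0.13 (SE 0.10, 95% interval -0.35 to 0.10), -0.07 without distal 3, -0.06 without proximal 3 and -0.20 without distal 2. EIF2AK2 (PKR, a kinase that halts translation) averaged 222.6 ± 24.5 CPM in distal and 241.2 ± 15.0 CPM in proximal tumour. ISG20, an exonuclease, had 3.11 to 5.64 CPM in distal and 3.32 to 6.38 CPM in proximal libraries.

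The genes of the oligoadenylate synthetase family, whose enzymes make a short nucleotide messenger on RNA duplexes, were uneven. Per kilobase, OAS3 averaged 6.90 CPM, OAS2 0.724 CPM, OASL (a relative without the enzyme activity) 0.278 CPM and OAS1 0.0819 CPM. The lowest library of OAS3 (4.52) was above the highest of OAS2 (1.03), while OASL and OAS2 overlapped (up to 0.460 and from 0.234). The lowest library of OASL (0.158) was above the highest of OAS1 (0.141). OAS2 had 4.14, 5.73 and 1.47 CPM in distal and 5.46, 4.02 and 6.42 CPM in proximal libraries. Distal 3 was the lowest, at a deviation of -1.70 from the mean of the others on the log2 CPM scale, the largest among tested members. OAS3 had 59.9, 60.1 and 37.3 CPM in distal and 52.7, 58.0 and 73.7 CPM in proximal libraries. OAS1 rested on 2 to 13 reads in distal and 6 to 18 in proximal libraries.

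The 4 IFIT genes, a family with members that bind foreign RNA ends, lie together on chromosome 10 between 89302046 and 89420997 (GRCh38.p14). All 4 had lower values in distal with all libraries, and 2 did with distal 3 left out. IFIT5 had 40.7, 39.3 and 27.2 CPM in distal and 40.7, 40.5 and 27.1 CPM in proximal libraries. Distal 3 and proximal 3 were low, and the log2 fold change was -0.01 (SE 0.20), 0.15 without distal 3 and -0.18 without proximal 3. IFIT1 had 22.3, 21.3 and 11.1 CPM in distal and 24.5, 23.7 and 22.5 CPM in proximal libraries. The groups did not overlap, but distal 1 was close to proximal 3. The log2 fold change of IFIT1 was -0.37 (SE 0.24, 95% interval -0.91 to 0.18), and -0.11 without distal 3.

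IFIT2 and IFIT3 were read less, at 1.10 to 3.88 CPM and 1.53 to 4.53 CPM in distal and 2.31 to 3.60 CPM and 3.28 to 5.39 CPM in proximal libraries. Both were lowest in distal 3. Per kilobase the order was IFIT5 (8.94 CPM), IFIT1 (4.53), IFIT3 (1.36) and IFIT2 (0.685). The ranges over libraries did not overlap between IFIT5 and IFIT1 (from 6.75 and up to 5.30) or between IFIT1 and IFIT3 (from 2.40 and up to 2.04), while those of IFIT3 and IFIT2 did.

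Of the membrane proteins, IFITM3 and IFI6 were read well and IFITM1 and BST2 hardly at all. Of the 4 tested, 2 had lower and 2 higher values in distal. IFITM3, which blocks viral fusion, had 70.6, 68.6 and 34.6 CPM in distal and 59.3, 41.3 and 74.4 CPM in proximal libraries. The spread within each group was wide and the groups overlapped. Its log2 fold change was -0.01 (SE 0.35), 0.25 without distal 3 and -0.20 without proximal 2. With distal 3 and proximal 3 both left out it was 0.46. IFITM2 had 14.8, 13.6 and 12.8 CPM in distal and 15.1, 7.30 and 17.6 CPM in proximal libraries. IFITM1 had 0, 1 and 1 reads in distal and 2, 0 and 1 in proximal libraries. The IFITM genes are close relatives on chromosome 11. On the same strand, 32.5% of the exon bases of IFITM1 overlap IFITM2 and 22.8% of those of IFITM2 overlap IFITM1. Reads could therefore have been split or dropped between them.

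IFI27, a small membrane protein, had 0.441, 0.742 and 1.10 CPM in distal and 0.542, 0.739 and 0.584 CPM in proximal libraries. It was 1 of the 3 tested members that were highest in distal 3, with STAT2 and IRF7, but rested on 10 to 18 reads a library. For IFI27 the log2 fold change was 0.27 (SE 0.47), -0.06 without distal 3 and 0.55 without distal 1. IFI6, an inhibitor of cell death, averaged 18.6 ± 5.44 CPM in distal and 19.2 ± 1.83 CPM in proximal tumour. BST2 (tetherin), which holds budding virus at the surface, had 1, 1 and 4 reads in distal and 2, 0 and 0 in proximal libraries.

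Among the other antiviral effectors MX2 exceeded MX1, and RSAD2 had the lowest p of all members. MX2, a GTPase known for blocking nuclear import of retroviruses, had 92.1, 91.8 and 77.7 CPM in distal and 89.5, 96.3 and 101 CPM in proximal libraries. Only distal 3 lay below the proximal values, and the log2 fold change was -0.13 (SE 0.10), or -0.05 without distal 3. MX1, its cytoplasmic relative, had 4.63, 2.88 and 2.20 CPM in distal and 3.52, 2.68 and 4.36 CPM in proximal libraries. Per kilobase the lowest library of MX2 (5.96 CPM) was above the highest of MX1 (0.537 CPM).

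RSAD2 (viperin, which makes a chain-terminating nucleotide) had 11, 30 and 9 reads in distal and 34, 31 and 43 in proximal libraries. These were 0.485, 1.24 and 0.550 CPM in distal and 1.32, 1.43 and 1.93 CPM in proximal libraries. The groups did not overlap, but distal 2 was close to proximal 1. The log2 fold change of RSAD2 was -1.02 (SE 0.45, 95% interval -2.02 to -0.01). The adjusted p of RSAD2 was 0.9997 and its unadjusted p 0.04737 by edgeR's quasi-likelihood test. Its size depended on the distal library left out: the log2 fold change was -0.78 without distal 1, -1.59 without distal 2 and -0.85 without distal 3. The unadjusted p of edgeR was 0.1613, 0.01042 and 0.1056 in these fits, and the adjusted p was at least 0.9987.

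XAF1, which promotes cell death, had 27.5, 29.7 and 11 CPM in distal and 26.5, 32.5 and 34.1 CPM in proximal libraries. Distal 3 was far below the other 5 libraries. The log2 fold change of XAF1 was -0.44 (SE 0.38), and -0.12 without distal 3. By GENCODE 29, 38.3% of its exon bases overlap another gene on the opposite strand. IFI35 averaged 22.0 ± 4.65 CPM in distal and 25.8 ± 1.99 CPM in proximal tumour. The other 4 of this group were below the expression filter. SAMD9 had 10, 17 and 1 reads in distal and 10, 5 and 7 in proximal libraries, and its relative SAMD9L had 0 to 3 in distal and 1 to 5 in proximal. IFI44 had 0, 2 and 1 reads in distal and 8, 1 and 6 in proximal libraries, and IFI44L had 11, 7 and 4 in distal and 20, 0 and 4 in proximal libraries.

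**Figure D4:**
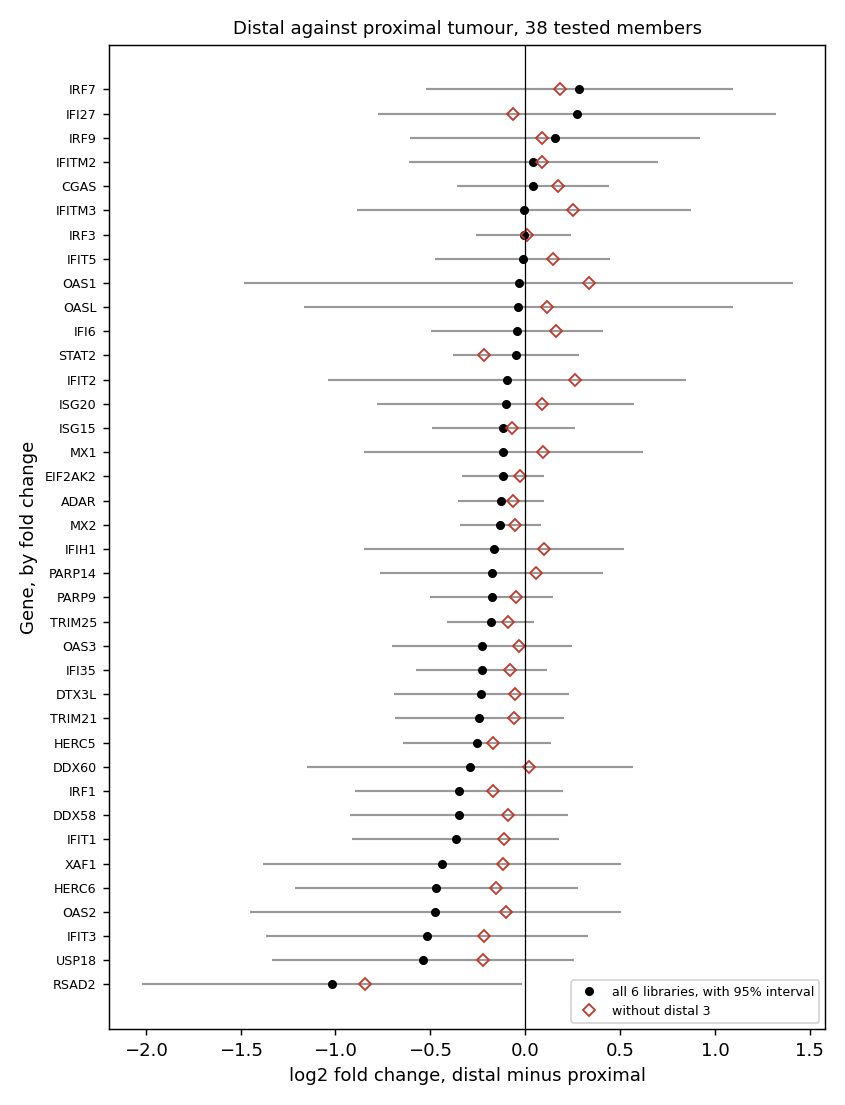
Log2 fold change, distal minus proximal, of the 38 tested members with its 95% interval (black points and grey lines, all 6 libraries) and without distal 3 (red diamonds). Of the 38 points 33 lie below 0 with all libraries and 22 without distal 3, and the interval of RSAD2 alone excludes 0.

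In distal 3 the size of the difference varied among members. Its level was under 50% of the median of the other 5 libraries for 11 of 38 members (28.9%), against 1.94% of all genes tested. These were DDX58, DDX60, USP18, HERC6, OAS1, OAS2, IFIT1, IFIT2, IFIT3, RSAD2 and XAF1. At the other end, distal 3 was above the mean of the others for 4 members, STAT2, IRF7, IRF9 and IFI27. The spread within a group was larger in distal for 29 of 38 members, with a median SD of 0.41 in distal and 0.19 in proximal on the log2 CPM scale, while over all genes it was 0.15 in both groups.

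Most receptor and signalling genes upstream of the effectors passed the expression filter, but IFNLR1 (5 to 15 reads) and SOCS1 (6 to 15 reads) did not. None of the 22 interferon genes looked for has a row in the table, whose rows all hold at least 1 read. The annotation behind the table is not known, so a missing row does not by itself show that a gene was not expressed. Of 15 receptor and JAK-STAT genes 13 were tested, 9 with lower and 4 with higher values in distal and none with an unadjusted p under 0.05 by edgeR, with a median log2 fold change of -0.08. Distal 3 was the lowest library for 7 of the 13 (53.8%), against 25.4% of all genes tested. PTPN11, a phosphatase that acts on JAK-STAT signals, was the most abundant, and averaged 314.0 ± 12.3 CPM in distal and 330.7 ± 7.38 CPM in proximal tumour. SOCS3, a feedback inhibitor, had the lowest p, with 2.07, 0.700 and 3.36 CPM in distal and 0.580, 0.693 and 1.44 CPM in proximal libraries and a log2 fold change of 1.16 (SE 0.59), or 0.62 without distal 3.

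Of 22 sensing adaptors and kinases 18 were tested, 13 with lower values and a median of -0.05. At an unadjusted p under 0.05 by edgeR 2 were lower and 1 higher, where the background was 0.665% of genes in each direction. After adjustment 0 passed. SAMHD1, which removes nucleotides and limits sensing, had the lowest p, at 24.3, 26 and 26.9 CPM in distal and 27.4, 38.8 and 32.2 CPM in proximal libraries, with a log2 fold change of -0.35 (SE 0.13). LSM14A, a component of RNA granules, was the most abundant and even, at 362 to 369 CPM in distal and 354 to 375 CPM in proximal libraries. Distal 3 was the lowest library for 7 of these 18 genes (38.9%), against 25.4% of all genes tested.

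Of 34 further interferon-stimulated genes 24 were tested, 19 with lower values and a median of -0.11. ZNFX1, a helicase-family RNA sensor, was the most abundant, at 162 to 196 CPM in distal and 188 to 233 CPM in proximal libraries. At an unadjusted p under 0.05 by edgeR 1 was lower and 0 were higher, where the background was 0.665% of genes in each direction. Distal 3 was the lowest library for 16 of the 24 (66.7%), against 25.4% of all genes tested. Without distal 3, 11 had lower values (45.8%), against 51.2% of all genes.

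Markers of immune cells, which also express these genes, were read at low levels but not evenly. Of 17 leukocyte markers, 11 were in the table, with a summed level of 4.14, 5.15 and 8.18 CPM in distal and 3.25, 2.72 and 6.60 CPM in proximal libraries. CD3E, CD4, CD68 and NKG7 had at most 5 reads in any library, and PTPRC, carried by all leukocytes, at most 14. LYZ, a myeloid marker, had 18, 18 and 67 reads in distal and 6, 10 and 66 in proximal libraries, and CSF1R, of macrophages, had 2, 5 and 15 in distal and 1, 3 and 13 in proximal libraries. Both were highest in distal 3 and proximal 3 by CPM. CD8A, of cytotoxic T cells, had 42, 66 and 39 reads in distal and 44, 24 and 18 in proximal libraries. By CPM every distal library was above every proximal one for CD8A, as for 3.2% of all genes tested. By edgeR the adjusted p of CD8A was 0.9997 (0.03199 before adjustment). All 6 endothelial markers were in the table, and their sum was 0.453 to 2.5 CPM in distal and 0.193 to 0.898 CPM in proximal libraries. The summed level of 9 Schwann cell markers, of 10 listed, was 87.9 to 132 CPM in distal and 75.3 to 166 CPM in proximal libraries. That of 7 fibroblast markers was 4540 to 5610 CPM in distal and 5420 to 6130 CPM in proximal libraries, most of it COL3A1, at 3730 to 4520 CPM in distal and 4560 to 5100 CPM in proximal libraries. Distal 3 was the lowest library for 4 of the 7 (57.1%), against 25.4% of all genes tested. COL1A1 went another way, with 16, 18.9 and 38.3 CPM in distal and 7.70, 18.6 and 62.2 CPM in proximal libraries, and COL1A2 was likewise highest in proximal 3 and next in distal 3. The part of these cell types in the member values was not tested.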

How the data were processed

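Poly(A) RNA of 3 distal and 3 proximal tumour tissue samples was sequenced from TruSeq libraries, per the labels' protocols. The deposited table gives the authors' raw counts, 1 row per gene symbol. Tools named in the submitters' processing notes are bcl2fastq, DESeq2, featureCounts 2.0.1, STAR 2.7.3a and Trimmomatic 0.39, and the build is GRCh38. Which annotation and strand setting were used, and what was done with host reads, is not given in the sources used here, so host reads aligned to human genes could be part of a count.

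The members and lists were chosen with earlier results of these data known. Counts were analysed in R 4.3.3 with edgeR 4.0.16 (expression filter by group, TMM scaling, robust quasi-likelihood test, Benjamini-Hochberg adjustment over all genes), which was also tested on simulated data. Each SE was derived from the fold change and its F statistic. CPM use TMM-scaled library sizes, and log2 CPM a prior count of 3. Levels per kilobase divide CPM by the exon union of GENCODE 29, which counts all annotated transcripts and so understates genes with long unused exons. Promoters and positions came from RefSeq (GRCh38.p14), with DDX58 matched through a synonym and the others by symbol. Alternatives used DESeq2 1.42.0, limma-voom (limma 3.58.1), 3 other scalings, 2 other filters, a replicate block, a muscle covariate and libraries left out.

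By rule, values per library were given for the most abundant and the lowest-p member of each role, and for members that did not overlap or had an unadjusted p under 0.05. Others given by library (IFITM2, OAS2, OAS3, USP18, ISG15, DTX3L, PARP9, MX1, XAF1 and members with few reads) were chosen after their values were seen. Figures were drawn with matplotlib 3.10.9. Planned comparisons of IFITM and ISG15 protein sequences were not analysed here. Some genes of the wider lists are not reported here.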

Additional observations from a re-analysis of the deposited data

How the results depend on the processing

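No member was called under any of the 16 alternatives, where the lowest adjusted p of a member was 0.9979. By the test of each fit, 5 members had an unadjusted p under 0.05 without distal 1 and 3 with the muscle covariate. There were 2 with the replicate block and 2 without distal 2, and 0 or 1 in the others. Genes called over the whole table numbered 1 with DESeq2 and 0 to 1 with a library left out (1 without distal 1), each time EDIL3, which is no member. The number of members with lower values in distal was 30 to 36 under other scalings, filters and tools, which tested 35 to 45 of them. With a library left out it was 22 to 36, and the median log2 fold change -0.34 to -0.04. Without distal 3 and proximal 3 together 18 of 40 members were lower, with a median of 0.03. The cause was not tested. Of 207 values of the 13 members named by rule, 16 changed sign, none of them called. Same-numbered libraries did not deviate together throughout (residual correlations 0.36, -0.11 and 0.18 for numbers 1, 2 and 3), so the numbers were not taken to pair the samples. By chi-square per gene, distal 1 was closest to proximal 1 (5.8) and distal 3 to proximal 3 (42.4). Distal 2 was closer to proximal 1 (9.08) than to proximal 2 (22.5). Whether same-numbered samples share an animal is not known. With the replicate block 0 genes were called, and 32 of 38 members were lower, with a median of -0.18.

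Depth limits the 10 members under 1 CPM: 3 reads are 0.116 to 0.183 CPM in these libraries, and small differences of those genes were not detectable at this depth.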

Other observations

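The genes named here are outside the 45 and were chosen after their values were seen. CXCL10, an interferon-induced chemokine, had 3.35, 9.97 and 1.34 CPM in distal and 4.33, 0.600 and 4.76 CPM in proximal libraries. SP100, a nuclear body protein, had 4.32, 4.04 and 0.916 CPM in distal and 3.60, 1.39 and 5.57 CPM in proximal libraries. LGALS3BP, a secreted glycoprotein induced by interferon, had 10.6, 13.3 and 5.68 CPM in distal and 19.7, 9.33 and 24.1 CPM in proximal libraries. Distal 3 was lowest for LGALS3BP and SP100, and proximal 2 for CXCL10. TLR3, an endosomal RNA sensor, had 1.54, 1.24 and 0.366 CPM in distal and 0.774, 0.231 and 0.943 CPM in proximal libraries.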
